A study of Rattus norvegicus with 8 samples.

Results

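The T cell receptor complex and its co-receptors were followed in the ventral prostate of TRAP rats through 10 genes: Cd3d, Cd3e, Cd3g, Cd2, Cd4, Cd5, Cd8a, Cd8b, Lck and Cd28. The rule that finds their probes uses no measured value: they are the probes whose gene name in the scanner files is one of these symbols. The 10 symbols themselves were chosen with earlier results of these data known. Each gene had 1 probe, so the set is 10 of the 35537 genes on the array, and 9 of the 10 passed the filter on dim probes. Cd28 did not pass. The filter asked for a signal well above background in the TRAP channel on at least 4 of the 8 arrays.

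TRAP rats are transgenic rats that develop adenocarcinoma of the prostate. As general background to the strain, the probasin promoter, which is active in prostate epithelium, drives a viral T antigen. All 8 rats analysed were heterozygous males of the SD strain, sampled at 15 weeks of age. The 4 control rats (Control 102, 103, 104 and 106) were kept on basal diet with tap water. The 4 treated rats (Telmisartan 302, 303, 305 and 306) took telmisartan, which blocks the type 1 receptor of angiotensin II, by way of their water for 12 weeks, starting when they were 3 weeks old. The dose was 10 mg/kg per day by the design text, although 1 label field lists 2 as well as 10 mg/kg per day. Every array set the prostate of 1 TRAP rat, in Cy5, against normal ventral prostate of male F344 rats at 6 weeks of age, in Cy3. Dyes were never swapped, and strain, age, transgene and dye differ together between the channels. A ratio over the reference therefore describes the arrays and is not a test of the transgene.

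The T cell receptor recognises peptides held by MHC molecules and has almost no cytoplasmic part of its own. It signals through the CD3 chains (Cd3d, Cd3e, Cd3g) and the zeta chain, whose tyrosines are phosphorylated by the kinase Lck. Lck is brought to the receptor by the co-receptors: CD4, which binds MHC class II, and the CD8 dimer (Cd8a, Cd8b), which binds class I. CD2 adheres to cells that carry its ligand, CD5 dampens receptor signals, and CD28 gives the second signal when it meets CD80 or CD86. Some of these genes are also used outside T cells: in the rat, macrophages carry CD4 and NK cells carry CD8 alpha chains. In RNA of a whole gland, fewer T cells and less RNA of a gene per T cell cannot be told apart.

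The array measured each gene through a single probe of 60 bases. The 5 below are printed because their genes include the dim CD3 chain, the kinase and the co-receptor whose values depended most on the processing. Each holds at least 1 forward reading frame without a stop codon.
Cd3e: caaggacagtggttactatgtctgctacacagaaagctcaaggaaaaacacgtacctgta
Cd4: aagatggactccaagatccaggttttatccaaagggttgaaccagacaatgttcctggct
Lck: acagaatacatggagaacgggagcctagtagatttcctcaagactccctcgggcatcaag
Cd2: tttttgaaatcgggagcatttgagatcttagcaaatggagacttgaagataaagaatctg
Cd5: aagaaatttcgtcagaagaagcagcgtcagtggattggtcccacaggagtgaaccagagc

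Of the gene spots on an array, control spots left out, 64.7% to 76.8% were well above background in Cy5 in control rats and 59.2% to 68.1% in treated rats. In Cy3 the share was 49.2% to 52.6% and 48.2% to 50.1%. Each of the 2 slides carried 2 rats of either group. Treated rats occupied positions 1 and 2 on both slides and control rats positions 3 and 4, so that position and group cannot be told apart. Between rats, Control 103 and Telmisartan 302 had the lowest mean log2 ratio of the 9 tested genes, 0.63 and 0.33, against 1.01 to 2.18 in the other 6 rats. The means were graded: Telmisartan 303 and 306 stood at 1.01 and 1.28, and the remaining rats at 1.82 to 2.18. The treated difference, the spread between rats and the correlations below are given with and without Control 103 and Telmisartan 302.

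The CD3 chain genes were above the reference in all control rats, with a wide spread between rats. Cd3d, which encodes the delta chain, had log2 ratios of 3.22, 0.65, 2.90 and 2.47 in Control 102, 103, 104 and 106. In Telmisartan 302, 303, 305 and 306 the same ratios were 0.24, 1.29, 2.40 and 1.84. Control 103 lay below 3 of the 4 treated rats, Telmisartan 302 was the lowest of all 8, and the groups overlapped. The means were 2.31 ± 1.15 in control and 1.44 ± 0.92 in treated rats (SD, n = 4 each), a difference of -0.87 (SE 0.58).

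Cd3g, which encodes the gamma chain and neighbours Cd3d in the genome with 0 genes between them, gave nearly the same order of rats. Its log2 ratios were 3.30, 0.85, 3.18 and 2.70 in Control 102, 103, 104 and 106. Those of Telmisartan 302, 303, 305 and 306 were 0.39, 1.76, 2.83 and 2.06. Control 103 and Telmisartan 302 were again the lowest rats, and only Telmisartan 305 among the treated rats reached the range of the other controls. The means were 2.51 ± 1.13 and 1.76 ± 1.02 (SD, n = 4 each), and the difference was -0.75 (SE 0.60). The scanner's mean Cy5 signal of the Cd3g probe ran from 3138 in Telmisartan 302 to 27481 in Control 104, while its Cy3 signal stayed between 571 and 675. The spread of the ratio therefore lay in the TRAP channel.

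Cd3e, which encodes the epsilon chain and is the next gene after Cd3d with 0 genes between, was much dimmer. Its log2 ratios were 1.50, 0.26, 1.61 and 1.57 in the control rats in the same order. Among treated rats they were -0.26, 0.88, 1.71 and 1.04. Telmisartan 305 was the highest rat, and Control 103 and Telmisartan 302 were the lowest. The means were 1.23 ± 0.65 and 0.84 ± 0.82 (SD, n = 4 each), with a difference of -0.39 (SE 0.42). Its reference signal was well above background on 0 of 8 arrays, which makes the level a bound. As a group mean, Cd3e was at least 2.35-fold above the reference in control rats and at least 1.80-fold in treated rats. Such bounds set the TRAP channel against the higher of the weakest detected reference signal and the probe's own, and without dye swaps a dye effect is part of them. They hold for this processing only: with no background correction the mean log2 ratio of Cd3e was lower, 0.81 in control and 0.55 in treated rats.

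The CD8 genes varied in the same way, and Cd8b was the gene with the most rats above 2-fold. Cd8b, which encodes the beta chain found on class I-restricted T cells, had log2 ratios of 2.77, 1.18, 2.70 and 2.21 in Control 102, 103, 104 and 106. Its ratios in Telmisartan 302, 303, 305 and 306 were 0.71, 1.28, 2.49 and 1.48. It exceeded 2-fold in 7 of 8 rats, all but Telmisartan 302. The means were 2.21 ± 0.73 and 1.49 ± 0.74 (SD, n = 4 each), a difference of -0.72 (SE 0.42). Cd8a, the alpha chain gene, is its neighbour, with 1 gene that does not code for protein between them. For Cd8a the ratios were 2.25, 0.70, 2.37 and 1.92 in control and 0.49, 0.96, 2.15 and 1.40 in treated rats. Its means were 1.81 ± 0.77 and 1.25 ± 0.71 (SD, n = 4 each), with a difference of -0.56 (SE 0.42). Only Telmisartan 305 among the treated rats reached the level of Control 102, 104 and 106 for either CD8 gene.

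Cd4, the other co-receptor gene, was close to the reference on a probe that was barely detected. The scanner's mean Cy5 signal was 171 to 348 in control rats and 142 to 287 in treated rats, over a local background of 67.5 to 75 in all 8. The log2 ratios were 0.61, 0.49, 0.59 and 0.23 in control rats. In treated rats they were 0.07, 0.53, 0.26 and 0.54. The groups overlapped throughout, and the means of 0.48 ± 0.17 and 0.35 ± 0.23 (SD, n = 4 each) differed by -0.13 (SE 0.14). The reference was well above background on 0 of 8 arrays. As group means in this processing, Cd4 was at least 1.20-fold above it in control and at least 1.16-fold in treated rats. With median centring the mean log2 ratios were 0.20 in control and -0.09 in treated rats, so these folds depend on the processing. Cd4 was well above background in Cy5 on all control arrays and on 3 of 4 treated arrays.

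Lck, the kinase that starts receptor signalling, followed the CD3 and CD8 genes. Control 102, 103, 104 and 106 had log2 ratios of 1.88, 0.62, 1.77 and 1.74. Telmisartan 302, 303, 305 and 306 had 0.70, 0.99, 1.80 and 1.15. Control 103 was the lowest rat of all 8 here, slightly below Telmisartan 302. The means were 1.50 ± 0.59 and 1.16 ± 0.47 (SD, n = 4 each), and the difference was -0.34 (SE 0.30).

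Among the accessory receptors, Cd2 and Cd5 were above the reference and Cd28 was not detected reliably. Cd2, the adhesion receptor, had log2 ratios of 2.33, 0.48, 2.03 and 1.85 in control and 0.09, 0.54, 2.05 and 0.97 in treated rats. Its means were 1.67 ± 0.82 and 0.91 ± 0.84 (SD, n = 4 each), a difference of -0.76 (SE 0.47). The Cd2 reference was below the background limit on every array. As group means in this processing, that gives at least 3.19-fold in control and at least 1.88-fold in treated rats. With no background correction the mean log2 ratios of Cd2 were lower, 1.24 and 0.66. Here 3 of 4 control rats and only Telmisartan 305 among the treated rats were above 2-fold.

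Cd5, the inhibitory receptor, had log2 ratios of 1.77, 0.43, 1.92 and 1.74 in control and 0.56, 0.84, 1.58 and 1.01 in treated rats. Control 103 was again the lowest rat. The means were 1.47 ± 0.70 and 1.00 ± 0.43 (SD, n = 4 each), and they differed by -0.47 (SE 0.33). In treated rats, where the reference was not detected on any array, Cd5 was at least 1.93-fold above it as a group mean in this processing. With no background correction that mean log2 ratio was lower, 0.72. Cd28, the costimulatory receptor, was well above background in Cy5 on 2 of 4 control arrays and 0 of 4 treated arrays. Its log2 ratios ran from -0.19 to 0.19 in control and from -0.29 to 0.36 in treated rats. Both channels were at the background limit, and no fold is given for it.

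**Figure D1:**
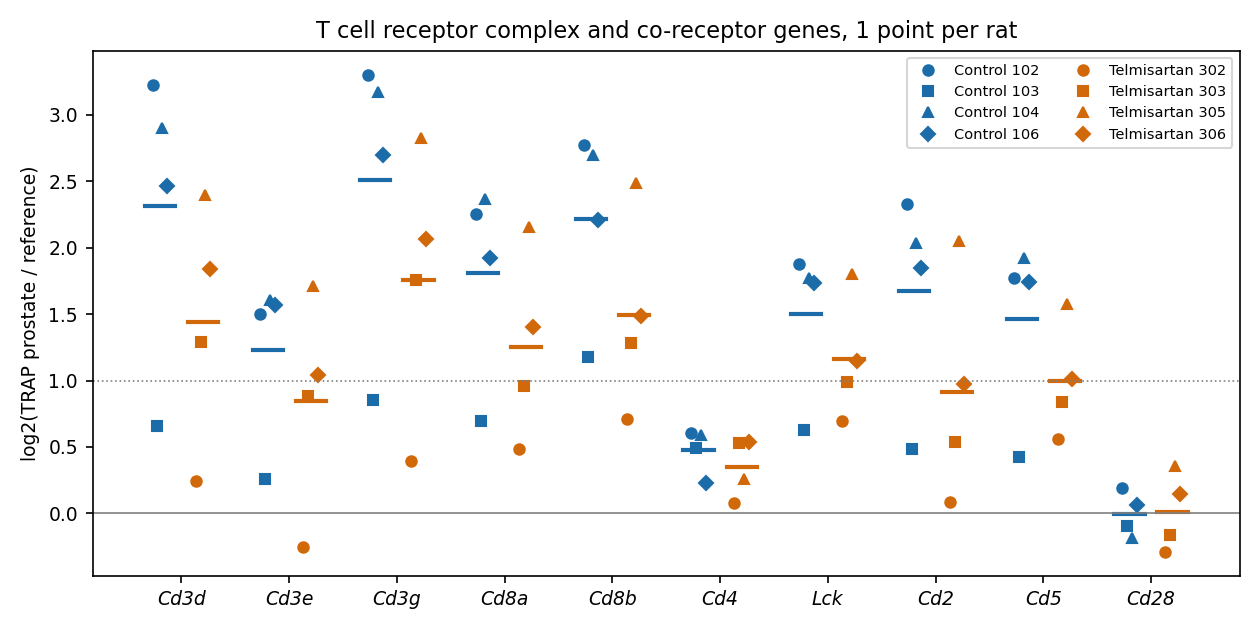
Log2 ratio of TRAP prostate over reference (vertical axis) for the 10 genes, with 1 point per rat, control rats in blue and treated rats in orange; short bars are group means, the solid line is no difference from the reference and the dotted line is 2-fold. Control 103 and Telmisartan 302 are the 2 lowest rats for Cd3d, Cd3e, Cd3g, Cd2, Cd5, Cd8a, Cd8b and Lck, while Cd4 and Cd28 lie near 0 in all rats.

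Set against the reference, 1 of the 9 tested genes, Cd8b, was above 2-fold in all 4 control rats, where 5.19% of all genes tested were. Another 7, namely Cd3d, Cd3e, Cd3g, Cd2, Cd5, Cd8a and Lck, were above 2-fold in 3 of 4 control rats, and in each the exception was Control 103. Without Control 103, 8 of the 9 were above 2-fold in all remaining control rats. The share of all genes that met either of these looser counts was not taken, so both describe the members alone. The size of these ratios depended on how dim spots were treated: the mean of Cd3e in control rats was 1.23 with the added offset, 0.81 with no background correction and 3.02 in the scanner software's own ratios. Cd4 in control rats ranged from 0.20 with median centring to 2.02 in the software's ratios. The brighter Cd3d stood at 2.31 in these data, 2.24 with no background correction, 2.31 in the software's ratios and 3.54 with median centring.

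Whether telmisartan changed these genes was asked by setting the 4 treated against the 4 control rats. All 9 tested genes had a lower mean in treated rats, with a median difference of -0.56, but none passed the test. By sign alone 50.6% of all genes were lower, and the median difference of all genes was -0.002. With an adjusted p under 0.05 there were 0 of 9 genes (0% of all genes tested), and every one of the 9 had an adjusted p of 0.982 (limma, Benjamini-Hochberg over 23188 genes). At an unadjusted p under 0.05 there were also 0 of 9, against 4.82% of all genes in either direction and 2.07% in the lower direction. In 0 of 9 did the groups fail to overlap, against 2.73% of all genes. The lowest unadjusted limma p was 0.113, for Cd8b, and the highest was 0.372, for Cd3e.

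The intervals of these differences were wide. For Cd3d the 95% interval ran from -2.16 to 0.43 on the log2 scale, for Cd8b from -1.65 to 0.21 and for Lck from -1.02 to 0.34 (limma). These 3 intervals hold no difference as well as a 2-fold lower level. Cd4, the gene with the narrowest interval, ran from -0.43 to 0.18. On both slides the 9 genes were lower in treated rats, with mean differences of -0.74 on slide 1 and -0.37 on slide 2. The difference lay in Cy5: for Cd3d it was -0.86 in the TRAP channel and 0.01 in the reference channel, and for Cd3g -0.71 and 0.03. For the dimmer Cd8a the reference channel also differed, by -0.33, beside -0.89 in the TRAP channel.

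**Figure D2:**
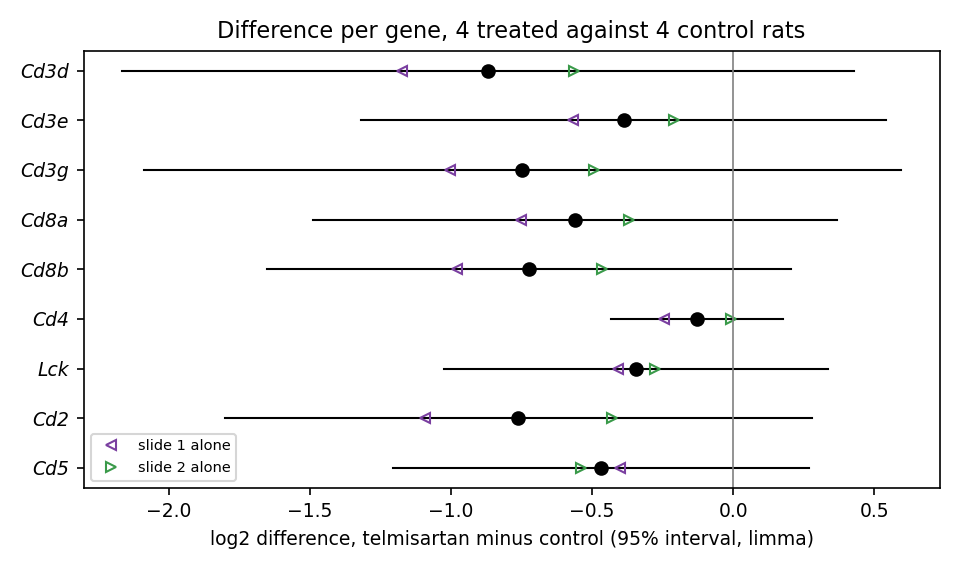
Difference in log2 ratio, telmisartan minus control (horizontal axis), for each of the 9 tested genes; dots are the difference over all 8 rats with its 95% limma interval, and open triangles are the differences within slide 1 and within slide 2. All dots are below 0 and all intervals cross 0; Cd8b runs from -1.65 to 0.21.

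The spread between rats was large for these genes compared with the array as a whole. The pooled standard deviation within groups had a median of 0.738 over the 9 genes and of 0.184 over all genes tested. For 8 of them it lay between percentile 96.2 (Lck) and percentile 99.6 (Cd3g) of all genes, and for Cd4 at percentile 58.4. From the lowest to the highest rat, Cd3d spanned 7.89-fold, Cd3g 7.51-fold, Cd2 4.73-fold, Cd8b 4.17-fold and Lck 2.38-fold. Cd4 spanned 1.45-fold. Part of this rested on Control 103 and Telmisartan 302: without them the span was 3.82-fold for Cd3d, 2.92-fold for Cd3g, 3.46-fold for Cd2, 2.81-fold for Cd8b and 1.85-fold for Lck. The median pooled standard deviation was then 0.450 over the 9 genes and 0.155 over all genes. The percentiles of the 8 genes ran from 88.3 (Cd5) to 99.0 (Cd2) over these 6 rats, and Cd4 lay at 65.2.

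Single rats decided how large the treated difference came out. The mean difference of the 9 genes was -0.55 over all rats, -0.91 without Control 103 and -0.29 without Telmisartan 302. Without Telmisartan 305, the treated rat with the highest values, it was -0.82. Leaving out Control 103 brought 7 of the 9 genes to an unadjusted p under 0.05: Cd3d, Cd3g, Cd2, Cd5, Cd8a, Cd8b and Lck. Their lowest adjusted p was then 0.545 (limma), and over all genes 2021 (8.71%) had an unadjusted p under 0.05, against 1117 with all rats. Without both Control 103 and Telmisartan 302, the mean difference was -0.64, 7 of the 9 genes had an unadjusted p under 0.05 and the lowest adjusted p was 0.482 (limma). Over all genes 2201 (9.49%) had an unadjusted p under 0.05 in that fit. The lowest unadjusted p in that fit was 0.00532 for Cd5 and 0.00541 for Cd3d (limma). Both rats were picked by their values of these same genes, and each had the lowest mean of its group. Leaving them out narrows the spread within groups by that choice, so the p-values of that fit are no test of the treated difference.

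**Figure D3:**
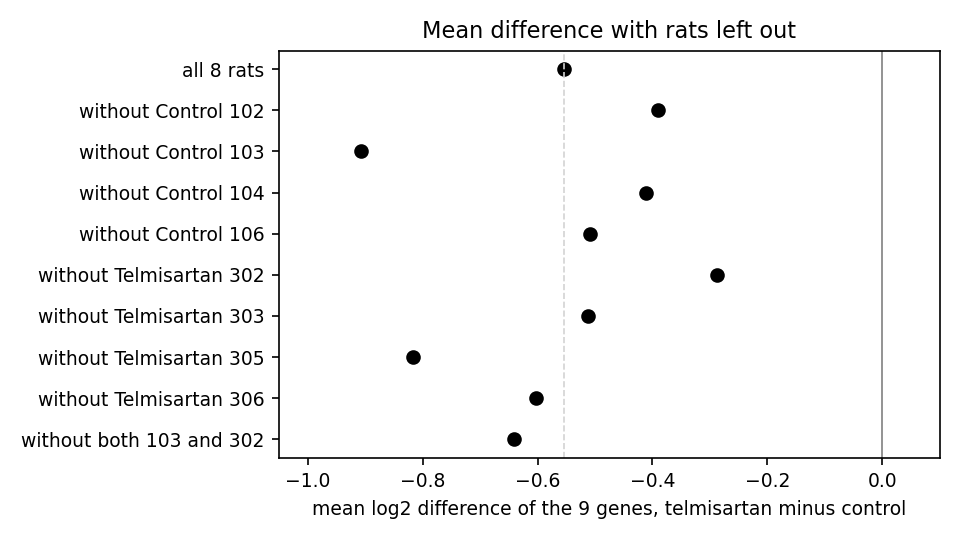
Mean log2 difference of the 9 genes, telmisartan minus control (horizontal axis), with all 8 rats and with each rat left out in turn, and without the pair of Control 103 and Telmisartan 302; the dashed line marks the value of all 8 rats. The mean difference stays below 0 and runs from -0.91 without Control 103 to -0.29 without Telmisartan 302.

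Cd3d, Cd3e, Cd3g, Cd2, Cd5, Cd8a, Cd8b and Lck were high and low together from rat to rat; these 8 were singled out after their values were seen. Over the 8 rats the 28 pairs among them had a Pearson r of 0.914 to 0.992 (median 0.964) and a Spearman rho of 0.786 to 1 (median 0.929). After group means were removed, the median r was 0.961. When the 2 rats with the most extreme means, Control 103 and Telmisartan 302, were dropped, r was 0.815 to 0.993 (median 0.957) over 6 rats. The closeness was less in settings that add no offset to dim spots. With normexp at offset 0 the lowest r over 8 rats was 0.768 (median 0.939), and in the scanner software's own ratios r ran from 0.509 to 0.993 (median 0.876). Cd3d and Cd3g were the closest pair, followed by Cd2 with Cd8b. All pairs share the same 8 RNA samples and arrays, so these values describe the rats and carry no test.

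Cd4 kept apart from the 8 genes in the ratios, with r of 0.181 to 0.428 (median 0.331) and rho of 0.262 to 0.643. Without Control 103 and Telmisartan 302 its r was -0.434 to 0.081. That distance was not seen in every setting. In the Cy5 channel alone, Cd4 followed the 8 genes with r of 0.873 to 0.950 (median 0.901). In the scanner software's own ratios its r with them was 0.536 to 0.841, inside the range of the 8 genes among themselves in those ratios. With normexp at offset 0 its r was -0.002 to 0.313, so that the distance remained there. Over the 8 arrays, the standard deviation of Cd4 was 0.230 on the log2 scale in Cy5 and 0.260 in Cy3, where the probe was not detected. Cd28, also near background, had r of 0.473 to 0.658 with the 8 genes.

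**Figure D4:**
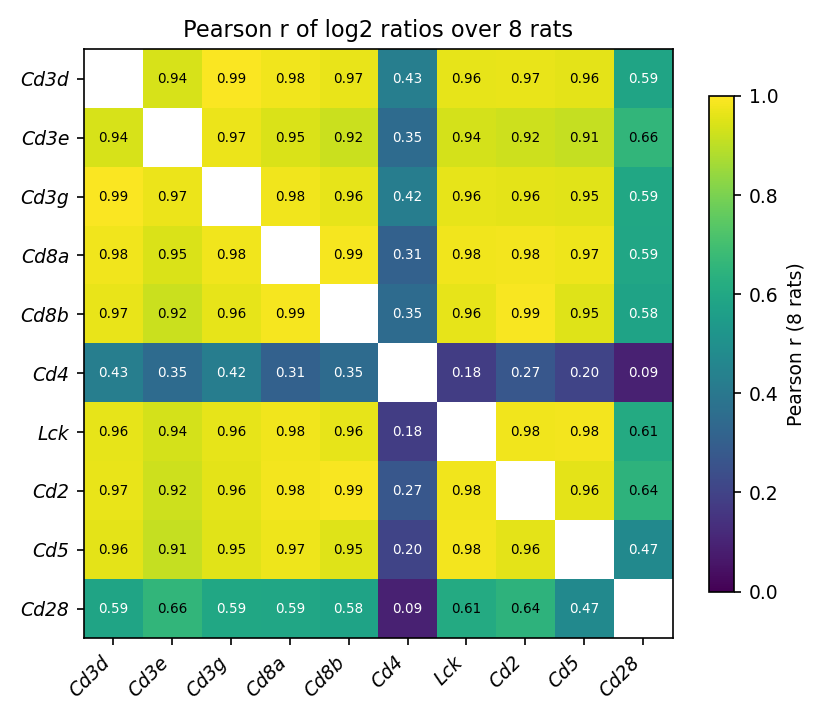
Pearson r of the log2 ratios over 8 rats for every pair of the 10 genes, as a colour from 0 to 1 with the value in each cell. The 8 genes other than Cd4 and Cd28 have r of 0.914 or more with each other, while Cd4 has r of 0.428 or less with them in these ratios but 0.873 or more in the Cy5 channel alone.

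What these genes have in common upstream of their starts was read from RefSeq promoter windows (GRCr8), which held 8 of the 10 genes; Cd4 and Cd8b were not in the table. The 250 bases before the start are shown for Cd2 and for both start sites listed for Lck, the upstream one first, since both genes moved with the CD3 and CD8 genes. Capitals mark 3 motifs of 6 letters, searched on both strands: TGTGGT, the core bound by RUNX factors, AGGAAG, bound by ETS factors, and CAGGTG, an E-box. The letters were chosen with the sequences in view.
Cd2, minus strand, chr2:191412660-191412909: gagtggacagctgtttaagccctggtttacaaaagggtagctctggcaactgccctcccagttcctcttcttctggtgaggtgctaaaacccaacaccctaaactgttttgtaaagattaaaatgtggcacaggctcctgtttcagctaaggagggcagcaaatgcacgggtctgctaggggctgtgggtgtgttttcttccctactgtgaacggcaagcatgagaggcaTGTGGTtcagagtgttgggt
Lck, minus strand, chr5:147201268-147201517: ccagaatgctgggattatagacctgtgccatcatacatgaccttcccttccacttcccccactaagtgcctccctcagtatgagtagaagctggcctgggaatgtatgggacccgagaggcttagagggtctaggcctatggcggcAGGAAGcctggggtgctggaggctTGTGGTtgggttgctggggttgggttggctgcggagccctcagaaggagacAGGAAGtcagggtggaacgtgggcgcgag
Lck, minus strand, chr5:147183651-147183900: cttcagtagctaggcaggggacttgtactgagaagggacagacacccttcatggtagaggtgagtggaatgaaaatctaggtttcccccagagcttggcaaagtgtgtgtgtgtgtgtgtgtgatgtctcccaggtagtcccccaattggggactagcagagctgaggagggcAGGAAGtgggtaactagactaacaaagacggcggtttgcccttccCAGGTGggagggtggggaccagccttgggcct
The RUNX letters stood in the window of 3 of the 8 genes (Cd2, Lck and Cd28), against 15.2% of 27457 genes with such a window. The ETS letters stood in 5 of 8 (Cd3d, Cd3e, Cd3g, Cd5 and Lck), against 31.3%, and the E-box letters in 4 of 8 (Cd3g, Cd5, Lck and Cd28), against 17%. The Cd8a window held none of the 3. Because the letters were chosen with these sequences in view, the counts are no test against the shares of all genes. A match describes letters and is no evidence of binding, and no match says only that these letters are absent from this window.

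Most genes of the list that carries the receptor's signal onward were high and low in the same rats, with a median r of 0.950 with the mean of the 9 genes over 8 rats. Plcg1 (-0.37), Fyb1 (-0.19) and Rasgrp1 (0.14), named after their values were seen, were not. Of 22 tested genes of T cell receptor signalling, 20 were lower in treated rats, with a median difference of -0.30. Of these, 0 had an unadjusted p under 0.05. Zap70, the kinase that docks on phosphorylated CD3 chains, had log2 ratios of 3.17, 0.57, 2.81 and 2.25 in control and 0.19, 1.34, 2.57 and 1.49 in treated rats. Control 103 and Telmisartan 302 were again the lowest. Its difference was -0.80 (SE 0.59), with an adjusted p of 0.982 (limma). Lcp2, an adaptor downstream of Zap70, differed by -0.65 (SE 0.38), and Sla, an adaptor that limits receptor signalling, by -0.49 (SE 0.31).

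Trat1, an adaptor associated with the receptor, had the lowest unadjusted p of that list, 0.0538 (limma), at a difference of -0.56 (SE 0.26). Ptprc, the CD45 phosphatase that activates Lck, stood at 1.77 ± 0.83 in control and 1.40 ± 0.56 in treated rats (SD, n = 4 each). Cd247, which encodes the zeta chain of the same complex, was near the reference at 0.32 ± 0.33 and 0.22 ± 0.38 (SD, n = 4 each). Its probe was well above background in Cy5 on all control and 2 of 4 treated arrays, and in Cy3 on 0 of 8.

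Probes for the receptor chains themselves were picked by their description, after the descriptions were seen, and gave 106 probes, of which 23 were well above background in Cy5 on all 8 arrays. A beta chain probe (Tcrb) had log2 ratios of 3.59, 0.88, 3.43 and 2.85 in control and 0.29, 1.68, 3.01 and 2.15 in treated rats, lowest in Control 103 and Telmisartan 302. Another probe of Tcrb was well above background in Cy5 on 3 of 8 arrays and read 0.46 and 0.18 as group means, so the probes of this gene disagree in size. The 3 gamma chain probes had control means of 1.38, 1.45 and 1.56 and treated minus control differences of -0.73, -0.48 and -0.49, with no test made. Most variable-region probes are specific to a segment, and 0 of the 106 probes were above 2-fold in all control rats. Of all genes tested, which had passed the filter on dim probes, 5.19% were. The brighter Tcrb probe and the 3 gamma chain probes were above 2-fold in Control 102, 104 and 106 and below it in Control 103. Gamma chains pair with delta chains on a T cell lineage other than that of the beta chain.

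Other receptors of T cells gave the same picture, with a single gene below an unadjusted p of 0.05 in a list of 15. Of all genes tested, 4.82% were below that p in either direction and 2.07% in the lower direction. Of these 15, 14 were lower in treated rats, with a median difference of -0.36. Icos, a costimulatory receptor of activated T cells related to CD28, had log2 ratios of 1.83, 0.47, 1.83 and 1.52 in control and 0.25, 0.70, 1.23 and 0.47 in treated rats. It differed by -0.75 (SE 0.31), with an unadjusted p of 0.0372 and an adjusted p of 0.982 (limma). Cd6, a relative of CD5, stood at 2.26 ± 0.76 and 1.61 ± 0.65 (SD, n = 4 each). Tnfrsf9, the costimulatory receptor 4-1BB, did not share the low value of Control 103, where it was highest at 2.55, against 1.33 to 1.93 in the other rats. Cd96, an adhesion receptor of T and NK cells, differed by -0.36 (SE 0.21).

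Ligands that meet CD2, CD28 and related receptors on antigen-presenting cells were lower in 8 of 9 cases, with a median difference of -0.20. Of the 9, 2 had an unadjusted p under 0.05, against 4.82% of all genes in either direction and 2.07% in the lower direction. Cd86, the partner of CD28, had log2 ratios of 2.76, 1.76, 2.61 and 2.38 in control and 1.26, 1.62, 2.24 and 1.64 in treated rats. Its difference was -0.69 (SE 0.25), unadjusted p 0.0194 and adjusted p 0.982 (limma). Tnfsf9, the partner of 4-1BB, differed by -0.42 (SE 0.15), unadjusted p 0.0203 and adjusted p 0.982 (limma). Cd40, which binds CD40 ligand on helper T cells, differed by -0.81 (SE 0.48), unadjusted p 0.122 (limma).

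Effector products of T and NK cells were lower in treated rats in 11 of 11 cases, with a median difference of -0.72, and 0 had an unadjusted p under 0.05. Gzmb, which encodes granzyme B, had log2 ratios of 3.81, 1.05, 4.0 and 2.47 in control and 0.33, 0.54, 3.52 and 1.58 in treated rats. Ccl5, a chemokine that attracts T cells, differed by -1.02 (SE 0.60), and Ifng, which encodes interferon gamma, by -0.58 (SE 0.30). Ifng was well above background on 4 of 4 control and 1 of 4 treated arrays.

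Homing and cytokine receptors were lower in 14 of 15 cases (median -0.45), with 1 unadjusted p under 0.05. That was Ccr6, a chemokine receptor, at -0.30 (SE 0.13), p 0.0413 (limma). Ccr7, which guides T cells to lymph nodes, differed by -0.45 (SE 0.23) and Cxcr4 by -0.68 (SE 0.40). Transcription factors were lower in 11 of 13 cases (median -0.10), also with 1 unadjusted p under 0.05. That was Zbtb7b, which directs thymocytes to the CD4 lineage, at -0.21 (SE 0.095), p 0.0494 (limma). Foxp3, the factor of regulatory T cells, was near the reference, at 0.16 ± 0.23 and 0.06 ± 0.30 (SD, n = 4 each), and Ets1 and Lef1 differed by -0.44 (SE 0.30) and -0.22 (SE 0.17). Over these 6 pathway lists 0 genes had an adjusted p under 0.05, as over the whole array. An unadjusted p under 0.05 was met by 4.82% of all genes in either direction and by 2.07% in the lower direction.

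Several lists of other immune cells also varied with the receptor genes from rat to rat, and others did not. The median r of a list's genes with the mean of the 9 genes over 8 rats was 0.969 for NK cell, 0.867 for B cell and 0.865 for macrophage markers. It was 0.761 for dendritic cell, 0.615 for mast cell, 0.556 for neutrophil and 0.546 for plasma cell markers. Within the macrophage list Cd14 (-0.003) and Cd163 (0.16), named after their values were seen, had little relation to them. The mean log2 ratio of 6 NK cell markers ran from -0.43 to 1.56 in control and from -0.42 to 1.29 in treated rats, lowest in Control 103 and Telmisartan 302, and 6 of 6 were lower in treated rats. Klrk1, an activating receptor shared by NK and CD8 T cells, differed by -0.58 (SE 0.48). For 14 macrophage markers the list mean ran from 0.96 to 1.80 and from 0.47 to 1.70, again lowest in Control 103 and Telmisartan 302 within their groups, and 12 of 14 were lower. Itgam, the integrin CD11b, did not overlap between the groups, at 2.65 ± 0.11 and 2.10 ± 0.35 (SD, n = 4 each), unadjusted p 0.00765 and adjusted p 0.934 (limma). Of all genes tested, 2.73% did not overlap. Mrc1, the mannose receptor, differed by -0.46 (SE 0.14), unadjusted p 0.00998 and adjusted p 0.955 (limma). In Control 103, where the CD3 genes were low, Itgam stood at 2.73, inside the range of the other control rats, and Mrc1 at 0.12, the lowest control value.

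For 6 B cell markers the list mean ran from 0.15 to 0.90 in control and from 0.02 to 0.98 in treated rats, and 6 of 6 were lower. The 4 dendritic cell markers ran from -0.01 to 1.01 and from 0.04 to 0.71, with 4 of 4 lower, and Batf3, a factor of cross-presenting dendritic cells, differed by -0.48 (SE 0.37). Plasma cell markers were lower in 4 of 5, neutrophil markers in 4 of 5 and mast cell markers in 4 of 7 cases. Of 5 immature thymocyte markers 2 were tested, and Ptcra, the pre-T cell receptor alpha gene, stood below the reference at -0.33 ± 0.15 and -0.30 ± 0.12 (SD, n = 4 each). None of the defining markers of the NK cell, macrophage and B cell lists on the array was undetected on every array.

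Tissue markers differed from list to list. Their median r with the mean of the 9 genes was -0.11 for luminal epithelium, -0.35 for smooth muscle, 0.38 for endothelium and 0.46 for fibroblast markers. The mean of the endothelium markers was lowest of its group in Control 103 (-0.59) and Telmisartan 302 (-0.50), against -0.38 to -0.12 in the other rats. In these rats 1 marker, Kdr, stood at -0.83 and -1.10. Its r with the mean of the 9 genes was 0.989, while 6 of the 7 endothelium markers had r below 0.5. The mean of 10 luminal epithelium markers ran from -0.20 to 0.22 in control and from -0.15 to 0.17 in treated rats, with 5 of 10 lower. Smooth muscle markers were lower in 1 of 6 cases, and Myh11 and Mylk were higher in treated rats by 0.39 (SE 0.16) and 0.33 (SE 0.14), unadjusted p 0.0407 and 0.0413 (limma), with adjusted p of 0.982 for both. Endothelium markers were lower in 4 of 7 and fibroblast markers in 4 of 7. The part of the immune cell content or of the position on the slide in the treated difference of the receptor genes was not tested.

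**Figure D5:**
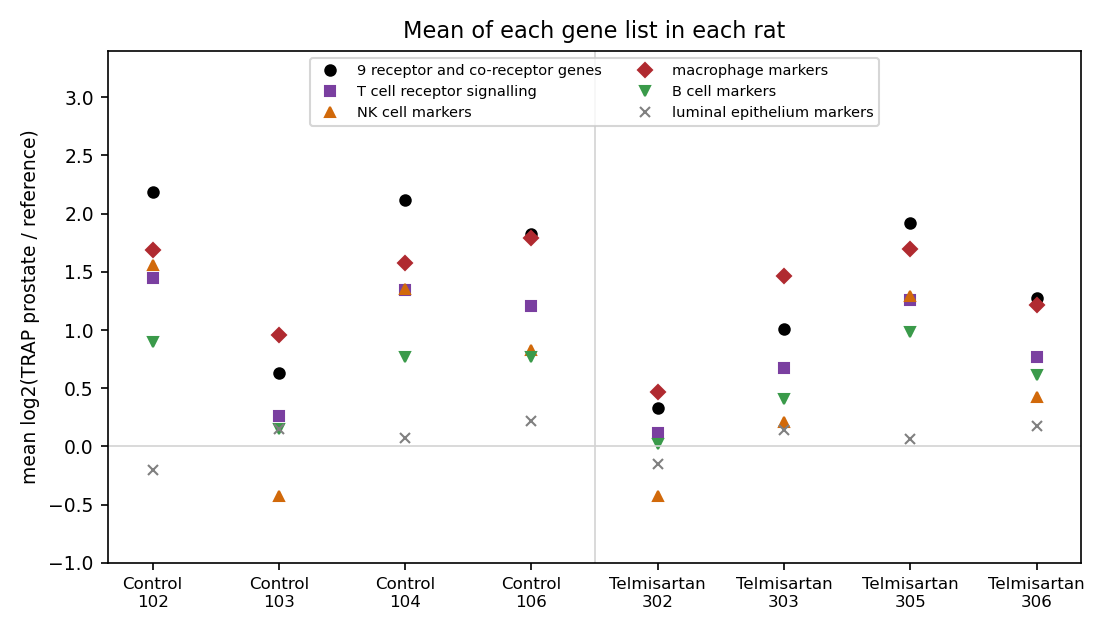
Mean log2 ratio over the reference (vertical axis) of 6 gene lists in each of the 8 rats, control rats on the left and treated rats on the right of the grey line, with 1 point per list and rat. The 9 receptor and co-receptor genes are at 0.63 in Control 103 and 0.33 in Telmisartan 302, where the signalling, NK, macrophage and B cell lists are also lowest of their group, while luminal epithelium markers stay between -0.20 and 0.22.

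The genes most like the mean of the 9 tested genes, ranked by Pearson r over the 8 rats among 11397 named genes that are not members, included Rhoh (0.999), Gimap4, Cd6, Stat4, Gimap5, Fmnl1, Vav1, Tm6sf1 and Ifit3 (0.994). Rhoh encodes a GTPase of blood cells, Gimap4 and Gimap5 encode GTPases of lymphocytes, and Vav1 is an exchange factor in receptor signalling. Over the 6 rats other than Control 103 and Telmisartan 302, their r was 0.983 to 0.999. Across all genes tested, 879 (3.79%) had r above 0.9 and 142 had r below -0.9, over rats that share their arrays. None of these passed the treated comparison: Gimap5 differed by -0.85 (SE 0.65) and Fmnl1 by -0.47 (SE 0.37), each with an adjusted p of 0.982 (limma).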

How the data were processed

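Ventral prostate RNA of 4 control and 4 telmisartan TRAP rats was measured on 2-colour arrays, 1 array per rat. Per the labels' protocols, ISOGEN was used for extraction and a linear amplification kit for labelling. Per the file headers and the submitters' processing notes, arrays were read with Agilent Feature Extraction 9.1. The sources used here do not say whether 1 RNA pool served as reference or whether rats were littermates.

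The deposited scanner files give the mean spot intensity and the median local background in each channel, uncorrected, and, per the file headers, log10 ratios (Cy5 to Cy3) after the software's own background subtraction and dye normalization. The deposited series matrix holds log10 values equal to these ratios, with a largest difference of 0.00500. Both served as alternatives.

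The intensities were corrected with normexp at an offset of 50, which draws ratios of dim spots toward 0, and normalized by loess within each array, control spots at weight 0 (limma 3.58.1, R 4.3.3). Outlier spots were left out, saturated spots kept, and spots of a probe averaged (41012 probes, of which 27541 passed the filter). The brightest probe stood for a gene, which left 23188 genes. Names came from a RefSeq gene table (GRCr8): accessions matched 10735 probes, current symbols 5571 and older symbols 3729, while 20977 probes kept their file name. Groups were compared on log2 ratios with lmFit and eBayes, two-sided; p-values were adjusted by Benjamini-Hochberg over all genes tested and measure the spread between these rats. The number of arrays limits the precision. The fit was tested on data simulated with independent noise per gene, where it recovered 98% of shifts of 2 and 100% of shifts of 3 (log2). The largest member difference was -0.87 (Cd3d), so the simulation does not show what the fit can find at the sizes seen here.

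The members and lists were chosen with earlier results of these data known. Besides the 10 members, the text names the 3 genes of lowest p in a list (in the lists it describes one by one), Ptprc, Cd247, Zap70, Cd6 and Foxp3, and the 10 genes most like the members' mean. A gene that this rule takes is not reported here. Alternatives covered background correction, normalization, the Cy5 channel alone, the software's ratios, the filter, probes per gene, slide, the variance model, array weights and each rat left out. Leaving out Control 103 and Telmisartan 302 together was added after the data were seen, and the pair was picked by its means of the receptor genes.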

Additional observations from a re-analysis of the deposited data

Results flagged for a closer look

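Control 103 lay far below the other 3 control rats for 3 of the receptor genes, by Dixon's test for groups of 4 at the 95% level. For Cd3e its log2 ratio was 0.26, with a gap to the nearest control rat of 0.923 of the group's range. For Cd5 it was 0.43, with a gap of 0.883 of the range, and for Lck 0.62, with a gap of 0.888. These are 3 of 20 groups of values examined, where chance gives about 1 in 20. The 3 genes follow each other from rat to rat, so they are not separate findings.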

How the results depend on the processing

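No paired analysis was possible because the groups share no replicate numbers. All 9 tested genes, or all 7 with a filter of 8 of 8 arrays, were lower in treated rats in each of the 24 alternatives, except that Cd28, tested only without the filter, was not. In none of the 24 did a receptor gene reach an adjusted p under 0.05 (lowest 0.414, Cd8b with array weights, limma). The mean difference of the receptor genes ran from -0.91 (without Control 103) to -0.29 (without Telmisartan 302), the range over single rats left out. The number of receptor genes above 2-fold in all control rats was 1 and became 0 with no background correction, 2 with normexp at offset 0, 5 with median centring, 7 in the software's ratios, 7 in the series matrix and 8 on slide 2 alone or without Control 103 and Telmisartan 302. Over single rats left out it ran from 1 to 8 (without Control 103). With all rats and the processing used above, 5.19% of all genes tested were above 2-fold in all control rats. That share was not taken for the alternatives, so their counts have no all-gene share beside them. Genes passing the adjusted test over the whole array were 0, and 0 to 1 over single rats left out. Receptor genes with an unadjusted p under 0.05 were 0, but 3 with array weights (11.2% of all genes), 1 on slide 2 alone (5.92%), 2 without Telmisartan 305 (7.57%) and 7 without Control 103 (8.71%). Genes of the whole array with an unadjusted p under 0.05 were 1117, between 467 (slide 1 alone) and 2597 (array weights). The causes were not tested. Signal over background limits Cd4, Cd28, Cd3e, Cd2 and Cd5, whose reference channel was detected on 1 array or fewer.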

Other observations

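Kdr, listed as an endothelium marker because it encodes a receptor of vascular endothelial growth factor, moved with the receptor genes more closely than the other genes of its list. Its log2 ratios were 1.57, -0.83, 1.20 and 0.70 in Control 102, 103, 104 and 106 and -1.10, -0.29, 1.13 and -0.12 in Telmisartan 302, 303, 305 and 306. Over the 8 rats its r with the mean of the receptor genes was 0.989, while Cldn5 and Pecam1 of the same list had r of -0.27 and 0.43. It was measured by 1 probe here, and whether that probe reads Kdr alone was not tested.

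Of the probes described as T cell receptor alpha chain, 3 lay far below the reference in all 8 rats, with control means of -4.08, -4.33 and -4.57 and treated means of -4.17, -4.54 and -4.63 on the log2 scale. All 3 were well above background in the reference channel on all 8 arrays, and in Cy5 the first was on 2 and the others on 8. The other 8 alpha probes detected in Cy5 on all arrays had control means of -0.20 to 0.69.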
